A study of Mus musculus with 24 samples.

Results

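Glycolysis splits glucose into pyruvate in the cytosol and yields ATP without oxygen, and lactate dehydrogenase then turns pyruvate into lactate and regenerates the NAD+ that the pathway consumes. When oxygen is short, the prolyl hydroxylases stop marking the transcription factor subunit HIF-1α for destruction, and HIF-1 raises transcription of glucose transporters, of most glycolytic enzymes and of a further set of genes outside the pathway. In the myeloid lineage, glucose use and HIF-1 activity are linked to inflammatory activation and to osteoclast formation. Described here are 37 genes of these programmes, chosen by symbol from a list: 18 glycolytic enzymes, 4 glucose and lactate transporters, 3 enzymes that switch the pathway or the entry of pyruvate into mitochondria, and 12 hypoxia-induced genes that are not enzymes of the pathway, called hypoxia-only genes below. The list was chosen with earlier results of these data known. The shares of members called below are therefore set beside those of all genes as description only. All 37 were found among the 54232 gene identifiers of the count tables, and all 37 passed the filter on low counts in each comparison. The symbol Aldoa matched 2 identifiers, and only the one listed first was used.

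Marrow of C57BL/6 females, 6 to 8 weeks old, was cultured as stroma in serum-containing medium for 7 days, and the cells were then sorted by FACS. Knock-in cells (Sh3bp2 KI/KI, titled CBM for cherubism, an inflammatory disease of the jaw bones caused by mutations of the adaptor protein SH3BP2) were set against wild type cells, in CD45+Sca1+ hematopoietic cells and in CD45-Sca1+ mesenchymal cells, with 6 libraries in each of the 4 groups. The labels name no Cre or cell-type-specific driver for the allele. The labels give neither the altered residue nor whether the 6 libraries of a group came from separate animals or cultures, so p-values measure the spread between these samples only, which may be technical. Library totals were 9875390 to 15826711 counts. The leading code of the deposited names divides the libraries into 2 file sets of 12, with 3 libraries of each group in each set; what the code stands for is not stated.

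The sort was visible in marker genes, and RNA of the other population was present. In the mesenchymal libraries, leukocyte markers stood at 0.590% ± 0.345 of their hematopoietic level in knock-in cells and at 0.389% ± 0.144 in wild type cells (SD, n = 6 each). In the hematopoietic libraries, stromal markers stood at 10.4% ± 5.54 of their mesenchymal level in knock-in cells and at 9.66% ± 4.76 in wild type cells (SD, n = 6 each), with an exact permutation p of 0.721, two-sided. The summed level of 13 osteoclast markers in hematopoietic libraries was 3013 to 6641 CPM (counts as a share of the library, on a scale set by the trimmed mean of M values) in knock-in cells and 1045 to 2796 CPM in wild type cells, without overlap. The leukocyte marker Itgam was listed at 0 in all 24 libraries, and the annotation marks its locus as overlapping another. In such bulk samples, a change in the share of a cell type and a change in RNA per cell cannot be told apart.

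HIF-1 binds a short core, spelled ACGTG or GCGTG, in the hypoxia response elements of its target genes. In RefSeq promoter windows (GRCm38.p6, 250 bases before to 50 after a gene's start), this core was found on either strand in 30 of the 33 members that have a window, against 46.7% of all 27025 genes with one. Some genes have more than 1 window: by window, the core was in 38 of 46 of the members, against 43.8% of all 32851. The core was in a window of 16 of 18 members that rose in knock-in hematopoietic cells. It was in a window of 13 of 14 members that were not called there. Since nearly all members carry the core, its presence could hardly separate these 2 sets, and no conclusion is drawn from it. A match describes letters and shows no binding. The 250 bases before the start are printed for 5 members on which the results turn, with the core in capitals: Ldha (chr7:46845554-46845803, plus strand, 5 cores), Hif1a (chr12:73907617-73907866, plus strand, 3 cores), Bnip3 (chr7:138909507-138909756, minus strand, 5 cores) and Ldhb (chr6:142507958-142508207, minus strand, 1 core), all higher in knock-in hematopoietic cells, and P4ha1 (chr10:59323046-59323295, plus strand, 3 cores), which was not called in either population. Ldha has 2 windows, and the one with the most cores was chosen for printing. CACGTG counts as 2 overlapping cores, 1 on each strand.
Ldha: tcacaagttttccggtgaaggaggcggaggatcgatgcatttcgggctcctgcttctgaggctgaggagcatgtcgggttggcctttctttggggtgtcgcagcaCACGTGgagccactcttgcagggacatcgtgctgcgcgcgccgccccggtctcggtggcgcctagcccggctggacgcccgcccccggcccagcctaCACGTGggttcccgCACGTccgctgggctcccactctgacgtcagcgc
Hif1a: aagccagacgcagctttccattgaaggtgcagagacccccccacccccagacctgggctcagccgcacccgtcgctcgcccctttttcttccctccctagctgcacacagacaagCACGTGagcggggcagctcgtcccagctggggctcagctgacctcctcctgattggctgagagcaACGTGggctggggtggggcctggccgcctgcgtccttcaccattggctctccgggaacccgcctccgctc
Bnip3: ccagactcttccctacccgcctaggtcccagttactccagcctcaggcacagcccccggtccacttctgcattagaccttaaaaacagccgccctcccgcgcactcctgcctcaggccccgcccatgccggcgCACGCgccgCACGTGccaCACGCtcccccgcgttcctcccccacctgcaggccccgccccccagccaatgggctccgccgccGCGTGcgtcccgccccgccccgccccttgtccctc
Ldhb: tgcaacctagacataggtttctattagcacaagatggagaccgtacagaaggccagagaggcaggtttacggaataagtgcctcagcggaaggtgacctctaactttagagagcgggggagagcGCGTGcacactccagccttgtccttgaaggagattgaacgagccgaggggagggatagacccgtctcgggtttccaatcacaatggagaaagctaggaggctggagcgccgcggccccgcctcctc
P4ha1: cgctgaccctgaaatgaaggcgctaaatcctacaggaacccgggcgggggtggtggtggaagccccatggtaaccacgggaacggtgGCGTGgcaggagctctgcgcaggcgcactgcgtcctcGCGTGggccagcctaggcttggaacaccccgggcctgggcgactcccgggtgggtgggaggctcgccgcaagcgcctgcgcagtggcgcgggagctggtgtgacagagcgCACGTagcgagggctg
In the Ldha sequence CACGTG stands at 2 places, and in those of Hif1a and Bnip3 at 1 place each.

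Per exon length, the same 3 enzymes had the highest mean levels of the members in each of the 4 groups. Aldoa, the main fructose-bisphosphate aldolase, had a level of 267 ± 13.7 RPKM (CPM per kilobase of exon) in knock-in and 162 ± 19.1 RPKM in wild type hematopoietic cells, and 163 ± 29.3 RPKM in knock-in and 164 ± 47.9 RPKM in wild type mesenchymal cells (n = 6 each, ± SD). Pkm, pyruvate kinase, came next with 188 ± 18, 136 ± 15.7, 139 ± 13.8 and 129 ± 14.3 RPKM in the same order of groups, and Ldha, lactate dehydrogenase A, followed with 86.2 ± 12.1, 56.5 ± 7.48, 114 ± 27.7 and 122 ± 34.0 RPKM. Much of this order was within the spread between libraries: the ranges of Aldoa and Pkm overlapped in every group but knock-in hematopoietic cells, those of Pkm and Ldha overlapped in both mesenchymal groups, and that of Ldha overlapped with Pgam1 in both hematopoietic groups and with P4ha1, a collagen prolyl hydroxylase, in every group but knock-in hematopoietic cells. At the other end, Eno2, the neuronal enolase, had a mean level under 1 RPKM in every group, and Hk3 and Aldoc were under 1 RPKM in both mesenchymal groups. Together the members took 0.443% to 0.540% of all counts in knock-in and 0.317% to 0.399% in wild type hematopoietic libraries, without overlap, and 0.378% to 0.562% in knock-in and 0.344% to 0.598% in wild type mesenchymal libraries.

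**Figure D1:**
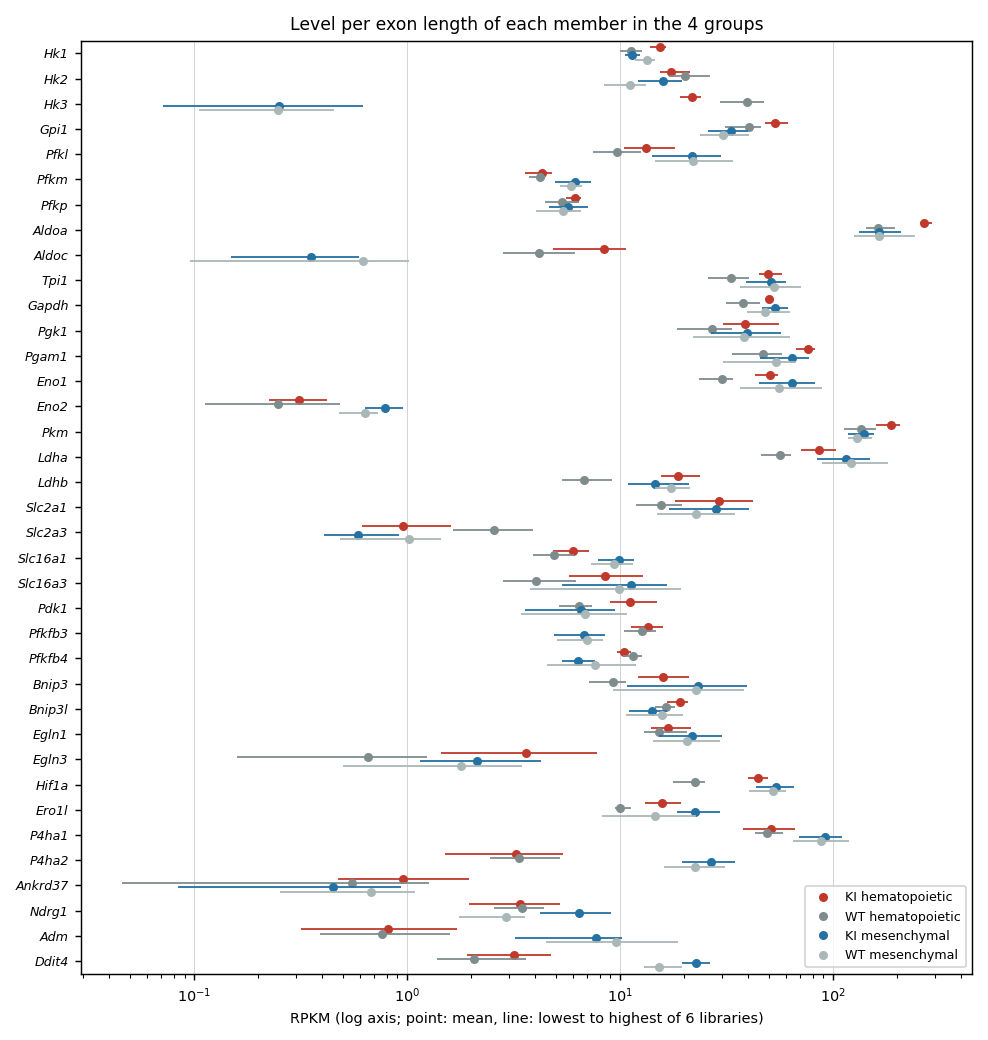
Level of each of the 37 members in RPKM on a log axis, with 1 point for the mean and 1 line for the lowest to the highest of 6 libraries in each of the 4 groups. Aldoa, Pkm and Ldha stand furthest to the right, and Hk3 and Aldoc are the enzymes whose mesenchymal levels lie far to the left of their hematopoietic levels.

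In hematopoietic cells, 20 of the 37 members rose in knock-in cells, 2 fell and 15 did not pass the test (edgeR quasi-likelihood test, Benjamini-Hochberg adjusted p under 0.05 over the 14030 genes tested). Among all genes tested, 15.9% were called, 9.01% as higher and 6.89% as lower. The members' median log2 fold change, knock-in over wild type, was 0.47, beside -0.005 for all genes tested, and 31 of 37 were above 0. Groups of 6 did not overlap for 17 members, against 7.8% of all genes tested. Of the enzymes of the pathway, 12 of 18 rose and 1 fell, with a median of 0.48. Of the hypoxia-only genes, 5 of 12 rose, with a median of 0.42.

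**Figure D2:**
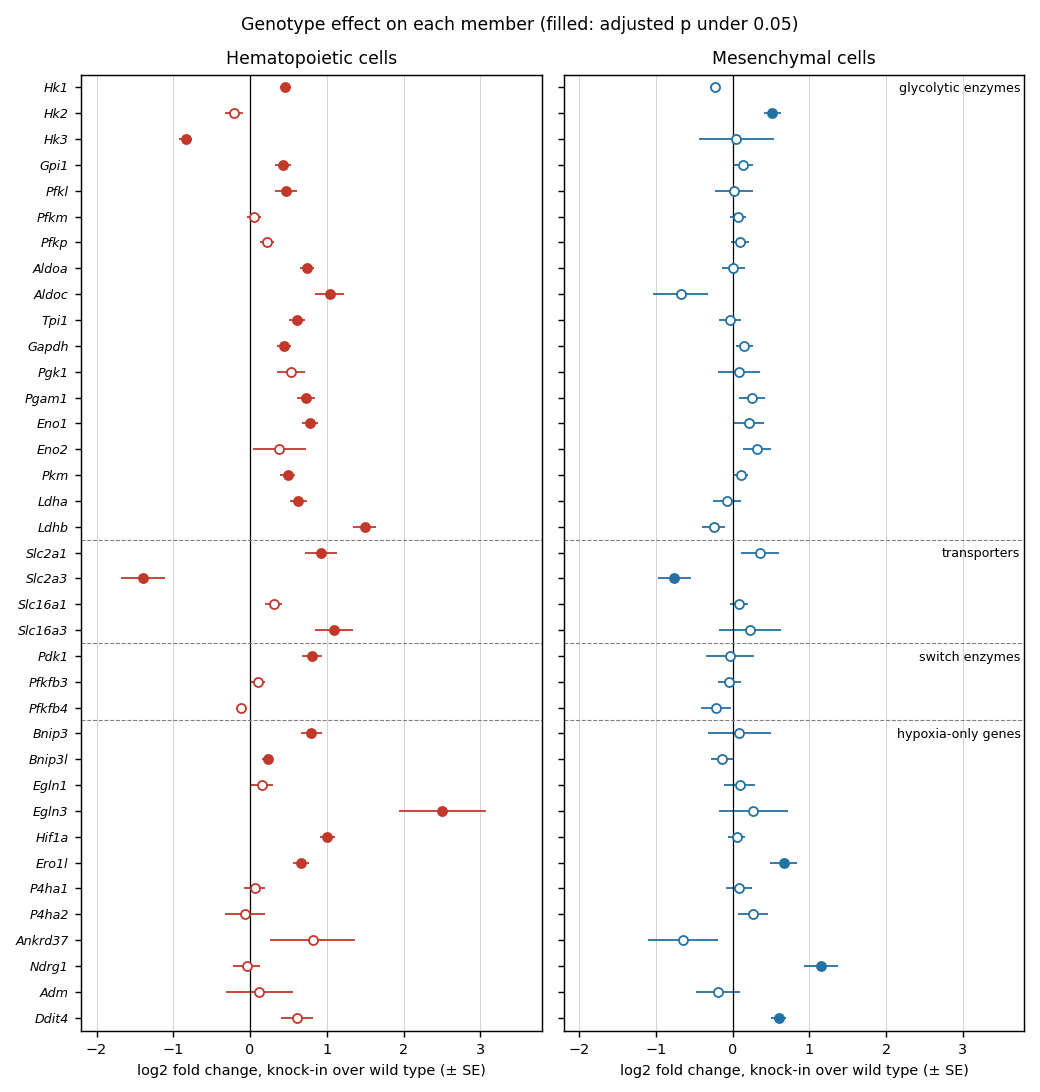
Log2 fold change, knock-in over wild type, of each member with its standard error, in hematopoietic cells (left) and mesenchymal cells (right), with filled points for members called at an adjusted p under 0.05. Most hematopoietic points lie right of 0, with Hk3 and Slc2a3 called to the left, while in mesenchymal cells 5 points are filled.

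Glucose enters through facilitative transporters, and the 2 measured here moved in opposite directions in hematopoietic cells. Slc2a1, which encodes the widely expressed GLUT1, had a lowest, median and highest level of 63.4, 93.4 and 147 CPM in knock-in libraries, against 41.5, 55.4 and 68.6 CPM in wild type libraries. The groups overlapped slightly, and Slc2a1 rose 1.90-fold (log2 0.92 ± 0.21 SE, edgeR adjusted p = 0.00964). Slc2a3, which encodes the high-affinity GLUT3, had 4.45, 6.32 and 11.6 CPM in knock-in libraries, against 11.8, 17.7 and 28.4 CPM in wild type libraries. Every knock-in library was below every wild type library, and Slc2a3 fell by 1.40 ± 0.28 SE on the log2 scale (edgeR adjusted p = 0.0052). Slc16a3, the lactate exporter MCT4, had 30.7, 38.3 and 67.9 CPM in knock-in libraries, against 15, 19.6 and 33 CPM in wild type libraries, and rose 2.13-fold (log2 1.09 ± 0.25 SE, edgeR adjusted p = 0.0102). Slc16a1, which encodes the lactate and pyruvate carrier MCT1, had a log2 fold change of 0.31 ± 0.11 SE and was not called (edgeR adjusted p = 0.084). Knock-in replicates 1 and 6 held the 2 highest levels of Slc2a1 (133 and 147 CPM) and Slc16a3 (63.5 and 67.9 CPM) and were each the highest of their group for 11 members. Without both, a setting chosen after seeing the data, Slc2a1 rose 1.54-fold and Slc16a3 rose 1.64-fold (edgeR adjusted p = 0.0276 and 0.0216), and 18 members rose and 2 fell, where 15.1% of all genes were called, with the calls of Gpi1 and Pfkl lost.

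Hexokinases commit glucose to the cell by phosphorylating it, and the 3 isoforms did not move together. Hk1 (chromosome 10, 62268855 to 62379908, GRCm38), the housekeeping isoform, had 118, 133 and 140 CPM in knock-in libraries, against 85.6, 96.0 and 108 CPM in wild type libraries. The groups did not overlap, and Hk1 rose 1.38-fold (log2 0.46 ± 0.07 SE, edgeR adjusted p = 0.000985). Hk2, the inducible isoform and a HIF-1 target, had 92.0, 98.9 and 127 CPM in knock-in libraries, against 101, 115 and 157 CPM in wild type libraries, and its log2 fold change of -0.21 ± 0.11 SE was not called. Hk3 (chromosome 13, 55005985 to 55021385), the isoform of myeloid cells, had 70.7, 81.3 and 88.3 CPM in knock-in libraries, against 108, 148 and 174 CPM in wild type libraries. No library crossed between the groups, and Hk3 fell by 0.84 ± 0.08 SE on the log2 scale (edgeR adjusted p = 5.36e-05).

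The middle of the pathway, where the sugar is isomerised, phosphorylated again and split, was mostly higher. Gpi1, which converts glucose-6-phosphate to fructose-6-phosphate, had 307, 346 and 394 CPM in knock-in and 199.6, 262 and 297 CPM in wild type libraries, without overlap (log2 0.43 ± 0.11 SE, edgeR adjusted p = 0.0142). Of the 3 phosphofructokinase subunits, which catalyse the committed step, the liver type Pfkl rose by a log2 of 0.47 ± 0.14 SE (edgeR adjusted p = 0.0405), a call lost in 9 of 21 alternative settings, and the muscle type Pfkm (0.05) and platelet type Pfkp (0.22) were not called. Aldoa (chromosome 7, 126795234 to 126800751) had 744, 762 and 846 CPM in knock-in libraries, against 417, 464 and 569 CPM in wild type libraries. That gap was wider than the range of either group, and Aldoa rose 1.67-fold (log2 0.74 ± 0.09 SE, edgeR adjusted p = 0.000161). Aldoc, a second aldolase known best from brain, was far less abundant per length and rose 2.05-fold (log2 1.04 ± 0.19 SE, edgeR adjusted p = 0.00244). Tpi1, the isomerase that interconverts the products of aldolase, had 124, 134 and 158 CPM in knock-in and 71.4, 89.2 and 110 CPM in wild type libraries and rose 1.52-fold (edgeR adjusted p = 0.00172).

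In the lower part of the pathway, which makes ATP, 4 of the 6 members rose. Gapdh, the dehydrogenase of glyceraldehyde-3-phosphate and a common reference gene in expression assays, had 197, 208 and 217 CPM in knock-in libraries, against 129, 152 and 187 CPM in wild type libraries. It did not overlap between the groups and rose 1.36-fold (log2 0.44 ± 0.09 SE, edgeR adjusted p = 0.00445). Pgk1, the first ATP-yielding kinase, had a log2 fold change of 0.54 ± 0.18 SE and was not called (edgeR adjusted p = 0.0636). Pgam1, the phosphoglycerate mutase, rose 1.65-fold, Eno1, the main enolase, rose 1.71-fold and Pkm rose 1.40-fold, each without overlap (edgeR adjusted p = 0.00122, 0.000379 and 0.0042). Eno2 had 1.06 to 1.98 CPM in knock-in and 0.529 to 2.27 CPM in wild type libraries and was not called.

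Both lactate dehydrogenase subunits rose, the B subunit more. Ldha, the subunit that favours lactate formation, had 234, 274 and 341 CPM in knock-in libraries, against 152, 196 and 210 CPM in wild type libraries. The lowest knock-in library was above the highest wild type library, and Ldha rose 1.55-fold (log2 0.63 ± 0.11 SE, edgeR adjusted p = 0.00212). Ldhb (chromosome 6, 142490249 to 142507957), the subunit that favours pyruvate formation, had 24.4, 26.8 and 37.1 CPM in knock-in libraries, against 8.34, 10.4 and 14.4 CPM in wild type libraries. It rose 2.82-fold (log2 1.49 ± 0.15 SE, edgeR adjusted p = 6.02e-05), the largest rise among the 18 enzymes. Among the switch enzymes, Pdk1, which blocks pyruvate dehydrogenase and is a HIF-1 target, had 69.4, 81.0 and 115 CPM in knock-in and 40.3, 50.3 and 57.5 CPM in wild type libraries and rose 1.74-fold (edgeR adjusted p = 0.00121). Pfkfb3 and Pfkfb4, which set the level of the phosphofructokinase activator fructose-2,6-bisphosphate, had log2 fold changes of 0.11 and -0.13 and were not called.

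**Figure D3:**
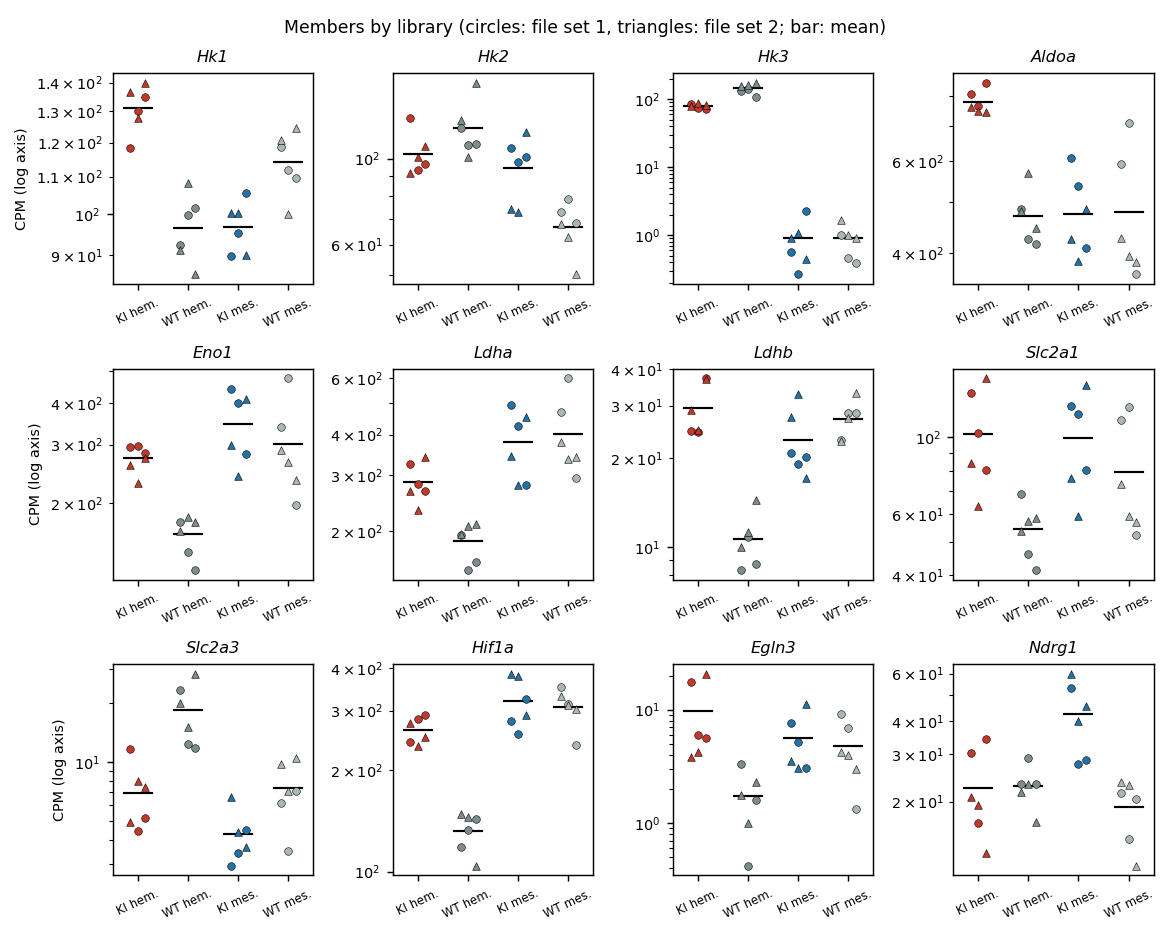
CPM on a log axis of 12 members in each library, in the order knock-in hematopoietic, wild type hematopoietic, knock-in mesenchymal and wild type mesenchymal, with circles for file set 1, triangles for file set 2 and a bar at the mean. Knock-in hematopoietic libraries lie above wild type ones without overlap for Hk1, Aldoa, Eno1, Ldha, Ldhb, Hif1a and Egln3 and below them for Hk3 and Slc2a3.

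Among the hypoxia-only genes, Hif1a itself rose, together with one of the enzymes that mark its product for destruction. Hif1a (chromosome 12, 73901375 to 73947530), which encodes the oxygen-regulated subunit of HIF-1, had 235, 264 and 290 CPM in knock-in libraries, against 104, 138 and 148 CPM in wild type libraries. All 6 knock-in libraries lay above all 6 wild type libraries, and Hif1a rose 2.01-fold (log2 1.01 ± 0.10 SE, edgeR adjusted p = 5.01e-05). Oxygen controls HIF-1α mainly at the protein, which these data do not measure. Egln3, a prolyl hydroxylase that HIF induces and that acts back on it, had 3.84, 5.83 and 20.7 CPM in knock-in libraries, against 0.422, 1.70 and 3.30 CPM in wild type libraries. The groups did not overlap, but knock-in replicates 1 and 6 stood at 17.4 and 20.7 CPM while the others were at 3.84 to 5.98 CPM, and the rise of 5.68-fold carried a wide error (log2 2.51 ± 0.57 SE, edgeR adjusted p = 0.0104). Without those 2 libraries the rise was 2.86-fold (edgeR adjusted p = 0.0307). Egln1, the main prolyl hydroxylase, had a log2 fold change of 0.15 ± 0.15 SE and was not called.

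Bnip3, a mitochondrial protein that promotes mitophagy, had 27.4, 34.2 and 47.9 CPM in knock-in libraries, against 16.2, 21.6 and 24.1 CPM in wild type libraries, and rose 1.74-fold without overlap (edgeR adjusted p = 0.00211). Its relative Bnip3l rose 1.17-fold (edgeR adjusted p = 0.0458), and that call was lost in 14 of 21 alternative settings. Ero1l, the oxidase that drives disulfide formation in the endoplasmic reticulum, had 68.9, 77.2 and 102 CPM in knock-in and 50.2, 52.3 and 59.4 CPM in wild type libraries and rose 1.58-fold (edgeR adjusted p = 0.00107). Ddit4 (REDD1), an inhibitor of mTORC1, had a log2 fold change of 0.61 ± 0.21 SE and an edgeR adjusted p of 0.0628. The collagen prolyl hydroxylases P4ha1 (0.06) and P4ha2 (-0.06), the growth-arrest gene Ndrg1 (-0.04), the vasodilator peptide Adm (0.12) and Ankrd37 (0.81 ± 0.55 SE) were not called either. These hypoxia-induced genes thus ranged from 2.51 to -0.06 in log2 fold change within the same libraries.

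The osteoclast markers named above also differed between the genotypes: 10 of 13 rose in knock-in hematopoietic cells, where 9.01% of all genes tested rose and 6.89% fell. Their summed level did not overlap between genotypes (exact permutation p = 0.00216, two-sided, the smallest possible for 6 against 6). Whether they vary with the members from library to library was not tested. Of 18 macrophage markers, 3 rose and 8 fell, and their summed level was 21986 ± 3107 CPM in knock-in and 19122 ± 2650 CPM in wild type libraries (SD, n = 6 each, exact permutation p = 0.11), a difference within the spread between libraries. The summed level of 18 leukocyte markers was 5547 ± 335 CPM in knock-in and 6155 ± 332 CPM in wild type libraries (SD, n = 6 each, exact permutation p = 0.013). The part of these cell types in the results was not tested. With the stromal marker level of each library in the fit, 25 members were called, the 22 above among them, and 23 of the 25 were higher. In that fit 2931 of all genes were called, against 2231 without the marker level, so the gain was not particular to the members. The stromal level is no measure of the osteoclast, macrophage or leukocyte share.

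In mesenchymal cells, 4 of the 37 members rose in knock-in cells, 1 fell and 32 did not pass the test (edgeR, 13867 genes tested, 7.27% called, 3.44% as higher and 3.83% as lower). The members' median log2 fold change was 0.08, beside 0.001 for all genes tested, and 2 members did not overlap between the groups, against 4.14% of all genes. Ndrg1 had 27.6, 42.7 and 59.9 CPM in knock-in libraries, against 11.5, 20.9 and 23.7 CPM in wild type libraries, and rose 2.21-fold (log2 1.15 ± 0.22 SE, edgeR adjusted p = 0.00931). Ddit4 had 34.4, 40.4 and 46.3 CPM in knock-in libraries, against 22.6, 25.7 and 34.2 CPM in wild type libraries, and rose 1.51-fold (log2 0.60 ± 0.10 SE, edgeR adjusted p = 0.00264). For both genes every knock-in library was above every wild type library. Hk2 had 72.7, 99.6 and 117 CPM in knock-in libraries, against 50.2, 67.9 and 78.7 CPM in wild type libraries, and rose 1.43-fold as the 1 enzyme called (edgeR adjusted p = 0.0146).

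Ero1l (log2 0.66 ± 0.18 SE) and Slc2a3 (-0.76 ± 0.21 SE) both had an edgeR adjusted p of 0.0454 in mesenchymal cells, with overlapping groups, and their calls were lost in 15 and 13 of 21 alternative settings. For the other members the mesenchymal groups overlapped. Even so, all 6 knock-in libraries were below the wild type mean for Hk1, Aldoc and Pfkfb4 and above it for Eno2. In simulated data, 42.7% of 1.5-fold changes were recovered in this comparison, so a member not called may still have changed. Hif1a had 256, 308 and 385 CPM in knock-in and 237, 313 and 353 CPM in wild type libraries, and Aldoa had 387, 456 and 609 CPM in knock-in and 364, 411 and 708 CPM in wild type libraries. The spread among mesenchymal libraries was wider: the median coefficient of variation over the members was 21.7% in knock-in and 28% in wild type mesenchymal libraries, against 16.9% in knock-in and 16.6% in wild type hematopoietic libraries. Wild type mesenchymal replicate 3 had the lowest level of its group for 23 of the 37 members and replicate 2 the highest for 17. Knock-in mesenchymal replicates 1 and 6 had the highest level of their group for 13 and 10 members. Without wild type replicate 3, 17 members had a log2 fold change above 0 in place of 25, and 3 were called. Leaving out knock-in replicate 6 in its place also gave 17 members above 0 and 3 called. Adipocyte markers summed to 70.1 to 195 CPM in knock-in and 238 to 574 CPM in wild type mesenchymal libraries, without overlap, and their part in these values was not tested.

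The difference between the genotype effects was tested in a fit of all 24 libraries, which shares its libraries with the comparisons above. It was called for 8 members, 2 with the higher and 6 with the lower effect in mesenchymal cells, where 7.28% of the 15389 genes tested were called, 2.92% as higher and 4.36% as lower. The genotype effect in mesenchymal minus that in hematopoietic cells was -1.73 ± 0.22 SE for Ldhb (log2, edgeR adjusted p = 3.28e-05), -0.68 ± 0.10 SE for Hk1 (9.31e-05), -0.95 ± 0.16 SE for Hif1a (0.000425), -1.79 ± 0.41 SE for Aldoc (0.00776), -0.72 ± 0.19 SE for Aldoa (0.0217) and -0.63 ± 0.19 SE for Tpi1 (0.0425). It was 0.74 ± 0.18 SE for Hk2 (edgeR adjusted p = 0.0108) and 1.2 ± 0.33 SE for Ndrg1 (0.0261). For the rest of the enzymes that rose in hematopoietic cells, Ldha (edgeR adjusted p = 0.077), Pkm (0.111) and Eno1 (0.196) among them, the difference between the populations was not called. Tpi1 lost its call in 20 of 31 alternative settings.

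Ratios between related members within a library do not depend on how the library is scaled. Of 13 such pairs in both populations, 8 of 26 ratios differed between the genotypes (two-sided exact permutation test over 6 against 6 libraries, adjusted over the 26). In hematopoietic cells the log2 ratio per exon length of Slc2a3 to Slc2a1 was -4.94 ± 0.560 in knock-in and -2.65 ± 0.339 in wild type libraries (SD, n = 6 each). That of Hk3 to Hk1 was 0.496 ± 0.167 in knock-in and 1.79 ± 0.308 in wild type libraries, so that Hk3 stayed above Hk1 per length by a smaller margin. The ratio of Ldhb to Ldha was -2.21 ± 0.299 in knock-in and -3.08 ± 0.275 in wild type libraries, that of Egln3 to Egln1 was -2.52 ± 0.789 in knock-in and -4.75 ± 0.818 in wild type libraries, and that of Bnip3l to Bnip3 was 0.281 ± 0.371 in knock-in and 0.831 ± 0.139 in wild type libraries, with knock-in replicates 1 and 6 lowest at -0.356 and 0.079. These 5 ratios did not overlap between the genotypes, and each had an adjusted p of 0.00938 by the exact permutation test.

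The ratio of the inducible to the housekeeping hexokinase moved in opposite directions in the 2 populations. Hk2 to Hk1 had a mean log2 ratio of 0.157 ± 0.240 in knock-in and 0.823 ± 0.346 in wild type hematopoietic libraries (SD, n = 6 each, exact permutation adjusted p = 0.0161). In mesenchymal cells it was 0.467 ± 0.346 in knock-in and -0.271 ± 0.277 in wild type libraries (SD, n = 6 each, exact permutation adjusted p = 0.00938), without overlap. In hematopoietic cells the Hk1 level had risen and Hk2 was not called, and in mesenchymal cells the Hk2 level had risen and Hk1 had a log2 fold change of -0.23 ± 0.07 SE that was not called (edgeR adjusted p = 0.0623). Hk1 was called lower there in 5 of 21 alternative settings, and all 6 knock-in libraries were below the wild type mean. P4ha2 to P4ha1 was the other ratio called in mesenchymal cells, with -1.79 ± 0.0883 in knock-in and -1.97 ± 0.138 in wild type libraries (exact permutation adjusted p = 0.0492). That is just under the threshold, and the groups overlapped, with a lowest knock-in ratio of -1.90 and a highest wild type ratio of -1.83.

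**Figure D4:**
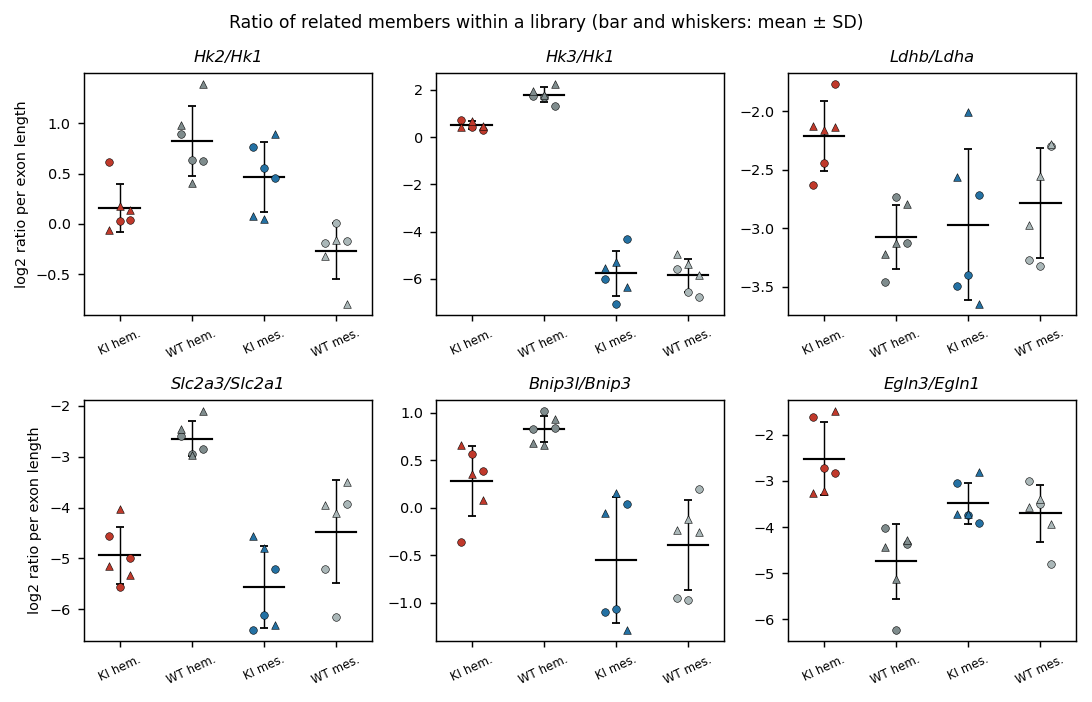
Log2 ratio per exon length of 6 pairs of related members in each library, with the mean and SD of each group, circles for file set 1 and triangles for file set 2. Knock-in and wild type hematopoietic libraries separate fully in all pairs but Hk2/Hk1, which is the 1 pair of these 6 that separates in mesenchymal libraries.

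Between the populations, mesenchymal over hematopoietic, most genes differed: 73% of the 15389 genes tested were called in knock-in and 73.5% in wild type cells, beside 24 and 27 of the 37 members. In knock-in cells 12 members were higher and 12 lower in mesenchymal cells, where 33.9% of all genes were higher and 39.1% lower, and 15 members did not overlap between the populations, against 51.3% of all genes. In wild type cells 20 members were higher and 7 lower, where 35.4% of all genes were higher and 38% lower, and 16 members did not overlap, against 51.8% of all genes. The same 5 members, Hk3, Aldoc, Adm, P4ha2 and Ddit4, had the largest differences in both genotypes. Hk3 had a mean of 0.916 CPM in knock-in mesenchymal cells, against 80.0 CPM in knock-in hematopoietic cells (log2 -6.44 ± 0.27 SE), and 0.908 CPM in wild type mesenchymal cells, against 145 CPM in wild type hematopoietic cells (log2 -7.30 ± 0.27 SE). Adm, P4ha2 and Ddit4 were higher in mesenchymal cells, with log2 differences of 3.28, 3.09 and 2.90 in knock-in and 3.60, 2.76 and 2.91 in wild type cells. Their hematopoietic values stand beside the stromal marker level given above, and its part in them was not tested.

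For other members the population difference depended on the genotype. Hif1a was higher in mesenchymal than in hematopoietic cells by a log2 of 0.28 ± 0.11 SE in knock-in cells (edgeR adjusted p = 0.0286) and of 1.22 ± 0.11 SE in wild type cells (edgeR adjusted p = 8.07e-10). Ldhb was lower in mesenchymal cells by -0.37 ± 0.15 SE in knock-in cells (edgeR adjusted p = 0.0323) and higher by 1.36 ± 0.16 SE in wild type cells (edgeR adjusted p = 4.52e-08). Hk1 likewise had -0.44 ± 0.07 SE in knock-in and 0.24 ± 0.07 SE in wild type cells. These are the interaction values above seen from the other side, from the same libraries.

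The members' genotype effects in hematopoietic cells had the same sign in both file sets for 33 of the 36 members that could be fitted in each, and for all 22 that were called. Hif1a, Ldhb and Hk3 were called in each set of 3 against 3 libraries alone, with log2 fold changes of 1.09 and 0.95, 1.66 and 1.36, and -0.70 and -0.96 in sets 1 and 2. Most enzymes had the larger value in set 1: Gapdh had 0.68 and 0.22, Eno1 1.01 and 0.56, and Ldha 0.81 and 0.46. In mesenchymal cells 19 of 36 members, and all 5 called ones, had the same sign in both sets. The calls come from the same libraries that make up the 2 sets. A shared sign among called members was therefore largely fixed in advance, and no share over all genes stands beside these counts.

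**Figure D5:**
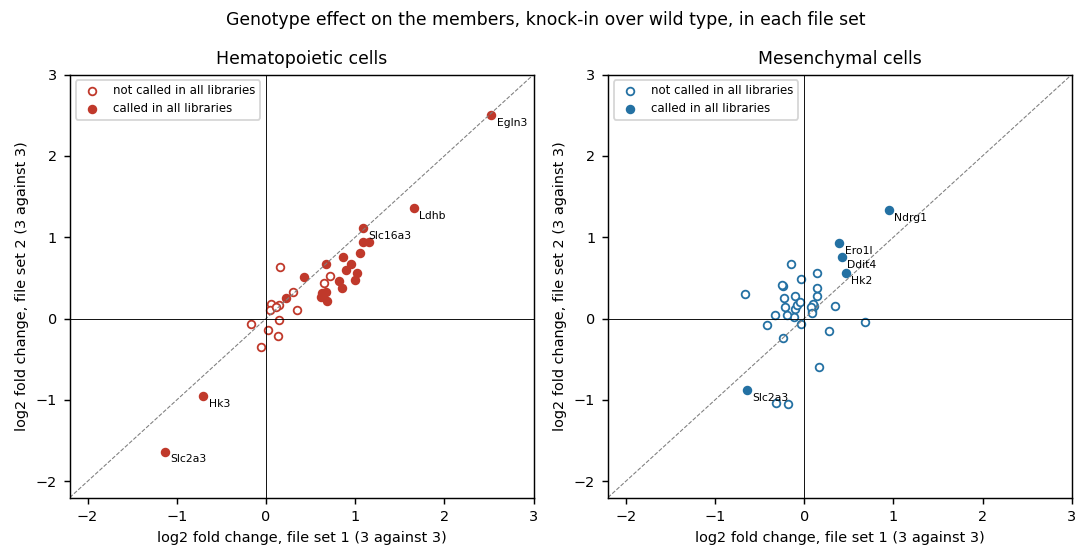
Log2 fold change, knock-in over wild type, of each member in file set 1 (horizontal axis) and in file set 2 (vertical axis), with filled points for members called in all 12 libraries of a population and a dashed line where both are equal. The called hematopoietic members have the same sign on both axes, which their call in the same libraries largely fixes. The mesenchymal members that were not called scatter around 0.

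Other genes of the same metabolism were read from further lists. In hematopoietic cells, where 9.01% of all genes tested were called higher and 6.89% lower, 7 of 10 genes of mitochondrial pyruvate entry rose. Their median log2 fold change was 0.39, beside -0.005 for all genes tested. They included Pdha1, the catalytic subunit of pyruvate dehydrogenase (142.9 ± 23.9 CPM in knock-in and 95.6 ± 17.7 CPM in wild type libraries, SD, n = 6 each), and Mpc2, a subunit of the mitochondrial pyruvate carrier (20.7 ± 2.32 CPM in knock-in and 14.9 ± 0.936 CPM in wild type libraries). Pdk4, another kinase that blocks that complex, fell by 1.00 ± 0.19 SE on the log2 scale (edgeR adjusted p = 0.00371), the opposite direction to Pdk1. Of 19 other tested genes of glycolysis and glucose handling, Pdk4 was the 1 that fell, and 5 rose, among them Eno3, the muscle enolase (log2 1.17), and Ldhd, a mitochondrial D-lactate dehydrogenase (log2 1.92 ± 0.42 SE). Few counts stand behind the Ldhd value, with 2.71 ± 1.39 CPM in knock-in and 0.701 ± 0.372 CPM in wild type libraries (SD, n = 6 each).

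The lists of the side branches held genes called in both directions, to be read beside the 9.01% of all genes called higher and the 6.89% called lower. H6pd, which starts the pentose phosphate route in the endoplasmic reticulum, rose (log2 0.82 ± 0.09 SE, edgeR adjusted p = 0.000105), and G6pdx, its cytosolic counterpart, fell by 0.28 ± 0.07 SE on the log2 scale (edgeR adjusted p = 0.0128), and of the 8 genes of that route 2 rose and 1 fell. Of 14 glycogen genes, 3 rose and 4 fell: Pygl, a phosphorylase that breaks glycogen down, and Gys1, a glycogen synthase, were among the risers (log2 0.69 and 0.60), and the brain-type phosphorylase Pygb fell (log2 -0.37). Of 35 other hypoxia-induced genes, 7 rose and 2 fell: the transferrin receptor Tfrc (log2 1.08) and the MYC antagonist Mxi1 (0.63) rose, and Ppfia4 fell (-1.12). Of 13 tested HIF subunits and oxygen-sensing genes, Cited2, an inhibitor of HIF that HIF induces, was the 1 called, as higher (log2 0.42), a smaller share than among all genes. Of 3 tested genes of gluconeogenesis, edgeR called 0, with 1 at an unadjusted p under 0.05, and DESeq2 called 1.

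In mesenchymal cells, where 7.27% of all genes tested were called, edgeR called 1 of 20 other genes of glycolysis and glucose handling, 1 of 3 of gluconeogenesis, 1 of 13 HIF subunits and oxygen-sensing genes and 3 of 34 other hypoxia-induced genes. Epas1, which encodes HIF-2α, fell by 0.75 ± 0.20 SE on the log2 scale, with 90.2 ± 23 CPM in knock-in and 154 ± 40.8 CPM in wild type libraries (SD, n = 6 each, edgeR adjusted p = 0.0387). Pdk4 fell by 0.59 ± 0.15 SE (edgeR adjusted p = 0.0269), and Pcx, pyruvate carboxylase, fell by 0.49 ± 0.12 SE (0.0264). Of the hypoxia-induced genes, Rbpj, the DNA-binding factor of Notch signalling, rose by a log2 of 0.58 ± 0.16 SE (edgeR adjusted p = 0.0463), while Lox, a HIF-induced collagen crosslinker, fell by 0.38 ± 0.09 SE (0.0197) and Nrn1, neuritin, fell by 1.31 ± 0.36 SE (0.0424). The pentose phosphate, pyruvate entry and glycogen lists had 0 calls by edgeR, with 1, 2 and 3 genes at an unadjusted p under 0.05, and DESeq2 called 1 gene, of the pentose phosphate list.

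Some of these values carry a limit from how reads are assigned. Gapdh, Ldha, Pgk1, Aldoa, Eno1, Tpi1 and Pgam1 have processed pseudogenes or near-identical copies, and exons of Pfkm, Pfkp, Gapdh, Hif1a, Ankrd37, Hk1, Hk3, Aldoa and Tpi1, among others, overlap those of other genes with counts. For Hk3 the overlapping gene is Unc5a on the opposite strand, with 1225 counts in all libraries beside 17802 for Hk3. For other members an opposite-strand gene had more counts than the member: Senp1 (23058 beside 5524 for Pfkm), Pitrm1 (40419 beside 24159 for Pfkp) and Ufsp2 (16702 beside 314 for Ankrd37). Hif1a, with 83015 counts, overlaps Gm49321 (2465 counts) on its own strand, which counting by strand would not resolve. The labels do not say whether the counting used strand, so the levels of these members are uncertain to that extent. Egln3 had 6 to 32 counts in wild type hematopoietic libraries, and Eno2, Adm and Ankrd37 were near 1 CPM in hematopoietic cells. Few counts stand behind these values. The same holds in mesenchymal cells for Aldoc, with 6 to 30 counts in knock-in and 4 to 52 in wild type libraries, on which its interaction value rests, and for Hk3, with 3 to 28 and 5 to 24 counts, on which its population differences rest.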

How the data were processed

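Ribosome-depleted total RNA was sequenced from 24 libraries with a stranded kit, per the labels' protocols. The authors deposited raw counts per gene in 1 file per library. FastQC 0.11.7, MultiQC, HTSeq 0.9.1, DESeq2 1.20.0 and GRCm38/mm10 are named in the submitters' processing notes; no aligner or counting options are stated there. Identifiers were matched to GENCODE M21 (54165 of 54232).

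Genes were filtered with filterByExpr (minimum count 10, total 15), scaled by TMM and tested with edgeR 4.0.16 (robust quasi-likelihood test, Benjamini-Hochberg adjustment over all genes tested, threshold 0.05) with the file set as a covariate. Each genotype comparison used its 12 libraries, and the population and interaction comparisons all 24. Standard errors were computed from the F statistic. CPM were scaled over all 24 libraries. Ratios used a prior count of 0.5 and exact permutation in scipy 1.17.1. Promoter windows are RefSeq's. No 2 libraries agreed within sampling noise. The edgeR fits were tested on simulated data.

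Alternatives were DESeq2 1.42.0 and its size factors, no filter, no file set term, a replicate block, each file set alone, the other population's markers as a covariate, 1 fit of all libraries, and leaving out each library or, chosen after seeing the data, 2 libraries together. Members and gene lists were chosen with earlier results of these data known. All 37 members are named; of each further list, up to 4 called genes with the lowest adjusted p could be named. The Sh3bp2 level was not used to check the knock-in, which the labels do not describe further.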

Additional observations from a re-analysis of the deposited data

Results flagged for a closer look

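Among the 148 combinations of member and group, 4 held a library far from the other 5 of its group, measured as its gap to the nearest library over the range of the group; chance alone gives about 1 in 20. Ddit4 in wild type hematopoietic cells had 6.34 CPM in replicate 3, against 2.42 to 3.51 CPM in the others, a gap of 0.721 of the range. Pgam1 in wild type mesenchymal cells had 60.2 CPM in replicate 3, against 108.7 to 133.2 CPM in the others, a gap of 0.664. Adm in wild type hematopoietic cells had 2.57 CPM in replicate 1, against 0.632 to 1.33 CPM in the others, a gap of 0.643. Ero1l in wild type hematopoietic cells had 59.4 CPM in replicate 1, against 50.2 to 53.6 CPM in the others, a gap of 0.629. The cause was not tested.

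The genotype effect differed between the populations, by the edgeR interaction test, for 8 members. On the log2 scale the effect in mesenchymal minus that in hematopoietic cells was -0.68 for Hk1, 0.74 for Hk2, -0.72 for Aldoa, -1.79 for Aldoc, -0.63 for Tpi1, -1.73 for Ldhb, -0.95 for Hif1a and 1.2 for Ndrg1.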

How the results depend on the processing

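No member reversed its direction past the threshold under any alternative. With 3 against 3 libraries, file set 1 alone gave 13 called members and 672 called genes in hematopoietic cells, 0 by edgeR (5 at an unadjusted p under 0.05) and 391 in mesenchymal cells, and 2 and 180 in the interaction; file set 2 alone gave 4 and 218, 1 and 76, and 1 and 138. The cause of the lower counts in set 2 was not tested. Leaving out knock-in hematopoietic replicates 1 and 6 together, chosen after seeing the data, gave 20 called members and 2172 genes. Without a term for the file set, 3 members were called in mesenchymal cells. DESeq2's Wald test called 1664 genes there, against 1008 by edgeR. Permuting within file sets left 1 ratio called in mesenchymal cells.

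Libraries of the same replicate number, as deviations from the group mean, correlated at 0.0882 to 0.491 between the hematopoietic groups. Between the mesenchymal groups the range was -0.0444 to 0.387. After removal of the file set mean as well, the ranges were 0.0834 to 0.451 and 0.0219 to 0.387. Knock-in hematopoietic replicates 1, 2, 3 and 6 then correlated best with the wild type library of their number, and replicates 4 and 5 did not. The labels state no pairs, and the numbers were not taken as pairs. Nor do the labels say whether the 2 sorted populations share cultures, and the fits of all 24 libraries treat the libraries as independent. With a replicate block, 25 members and 3315 genes were called in hematopoietic cells, 5 and 1258 in mesenchymal cells, and 10 and 1331 in the interaction. For the ratios, the blocked sign-flip test called 0 pairs in either population, since its smallest p is 0.0312 before adjustment.

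Leaving out 1 library at a time gave 20 to 24 called members and 1745 to 2206 called genes in hematopoietic cells, 3 to 6 and 646 to 1036 in mesenchymal cells, and 6 to 10 and 937 to 1166 in the interaction. The population comparison gave 22 to 25 members and 11078 to 11406 genes in knock-in and 25 to 30 members and 11135 to 11476 genes in wild type cells. Called ratios were 6 to 7 in hematopoietic and 1 to 2 in mesenchymal cells. The knock-in minus wild type difference in other-population markers was -1137 to 1636 CPM in hematopoietic and 3.12 to 12.2 CPM in mesenchymal libraries. The mesenchymal gene count fell by over 1.5 times only without knock-in replicate 1, to 646. Without wild type mesenchymal replicate 3, 4, 5 or 6, or knock-in replicate 1, 2, 5 or 6, Ero1l and Slc2a3 both lost their call, which left 3 called members (4 without wild type replicate 5). In the fit of all 24 libraries, Bnip3, Bnip3l and Pfkl lost their hematopoietic call and Ddit4 gained one.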
